A study of Mus musculus with 115 samples.

Results

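Mitochondria carry their own ribosome, the mitoribosome, which translates the few proteins encoded in mitochondrial DNA. These proteins are core subunits of the respiratory chain complexes and of ATP synthase. All protein components of the mitoribosome are encoded in the nucleus, made in the cytosol and imported, where they assemble with mitochondrial rRNA into a large subunit (Mrpl genes), which joins amino acids, and a small subunit (Mrps genes), which reads the mRNA. In brown adipocytes, which burn fuel for heat through the uncoupling protein Ucp1, mitochondria are abundant, whereas white adipocytes store lipid and hold fewer of them.

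The mitoribosomal genes were taken as the genes with an Mrpl or Mrps symbol followed by a number and at least 1 array probe set assigned to that symbol alone. There were 74 of them, 46 for the large and 28 for the small subunit, among 18772 measured genes. They had 86 probe sets, and for the 12 genes with several the probe set with the highest mean was used. Another 9 probe sets that list a mitoribosomal symbol together with other symbols were not counted. One of the 74, Mrps36, is now known as Kgd4 and as a component of the alpha-ketoglutarate dehydrogenase complex. It was kept, and counted with the small subunit genes, because the choice was by symbol.

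Expression was measured on Affymetrix arrays in the mammary fat pads of 115 female mice that were 8 weeks old, untreated and on ordinary chow. Each mouse was a distinct offspring of a cross of [FVB/N x Spret/Ei] hybrids back to FVB/N, so that at an autosomal gene it carries either FVB/N alleles alone or 1 Spret/Ei allele. The labels sort the mice into lymph cluster 1 (44 mice), lymph cluster 2 (61) and lymph cluster 3 (10), without saying how the clusters were made, and onto array plate 1 (93) or array plate 2 (22). Genotype, treatment and age do not differ between the clusters in the labels. Values are log2 intensities normalized together by the robust multi-array average, so levels of different probe sets are not set against each other.

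A fat pad is a mixture of tissues, and each was followed by the mean of a marker list in every mouse. The white adipocyte list mean (15 genes measured) lay between 10.90 and 12.20, the brown adipocyte list mean (10 genes) between 6.17 and 9.49, the skeletal muscle list mean (18 genes) between 5.05 and 12.49, the luminal epithelium list mean (13 genes) between 6.08 and 10.15 and the lymphocyte list mean (12 genes) between 6.26 and 9.35. Ucp1 itself ran from 4.94 to 12.64, with a median of 8.99. In such bulk tissue, fewer cells of a type and less RNA per cell cannot be told apart.

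Promoters of nuclear genes for mitochondrial proteins are known for sites of the factors NRF1, GABP (an ETS family factor) and YY1. RefSeq promoter windows (build GRCm38.p6, 250 bases before to 50 bases after the start) were at hand for 65 of the 74 genes. The windows below are the first listed for each of the 3 genes with a window whose mRNA rose most steeply with the respiratory chain genes. Each is written 5′ to 3′ on the gene's strand, with matches to any of the motifs searched in capitals.
Mrps36 (chr13:100744610-100744909, minus strand): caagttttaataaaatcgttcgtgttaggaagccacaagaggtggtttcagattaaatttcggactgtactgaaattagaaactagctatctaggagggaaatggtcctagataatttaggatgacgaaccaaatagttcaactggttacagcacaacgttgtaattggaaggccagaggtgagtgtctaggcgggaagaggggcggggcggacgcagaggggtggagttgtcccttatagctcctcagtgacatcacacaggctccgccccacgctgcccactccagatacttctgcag
Mrpl12 (chr11:120484387-120484686, plus strand): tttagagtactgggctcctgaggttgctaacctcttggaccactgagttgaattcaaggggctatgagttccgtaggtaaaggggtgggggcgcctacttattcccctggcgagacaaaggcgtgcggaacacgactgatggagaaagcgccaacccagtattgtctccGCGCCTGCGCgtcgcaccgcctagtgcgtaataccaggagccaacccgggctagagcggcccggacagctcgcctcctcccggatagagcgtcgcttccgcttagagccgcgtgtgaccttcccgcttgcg
Mrpl34 (chr8:71464676-71464975, plus strand): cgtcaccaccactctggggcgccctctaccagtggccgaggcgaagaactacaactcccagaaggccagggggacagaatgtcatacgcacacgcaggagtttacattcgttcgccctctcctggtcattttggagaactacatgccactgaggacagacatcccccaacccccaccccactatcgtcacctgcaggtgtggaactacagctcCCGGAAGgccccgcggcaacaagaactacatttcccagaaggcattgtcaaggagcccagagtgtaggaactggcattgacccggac
The Mrpl12 window holds 1 match to the NRF1 motif, beginning 81 bases before the start, and the Mrpl34 window 1 match to the ETS core, beginning 37 bases before it. The Mrps36 window holds none of these letters.

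A gene was counted where any of its windows held a motif on either strand. The consensus NRF1 motif was found in 13 of the 65 genes, against 7.97% of the 14708 measured genes with a window. The ETS core (CCGGAAG) was found in 24, against 13.7%, and its longer form (CCGGAAGT), which the core includes, in 11, against 6.07%. The YY1 motif (AAGATGGC) was found in 12, against 3.83%. In all, 41 of the 65 genes held at least 1 of them. The same share over all measured genes was not computed, so this count is not read as a result about the members. Genes with a motif did not stand out in how steeply they followed the respiratory chain genes: the median slope, described below, was 0.55 with and 0.58 without the NRF1 motif, 0.50 and 0.59 for the ETS core, and 0.55 and 0.58 for the YY1 motif. A match in such a window is a description of its letters and does not show that a factor binds there.

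Across mice, mitoribosomal genes varied by a median SD of 0.265, against 0.236 over all genes. The most variable was Mrps28, a small subunit protein, with an SD of 0.803 and values from 7.04 to 9.76. Mrpl47 followed with an SD of 0.489 (5.84 to 8.33) and Mrps36 with 0.444 (6.04 to 8.60). The steadiest were large subunit genes: Mrpl33 had an SD of 0.138 (6.05 to 6.74), Mrpl57 of 0.178 (9.57 to 10.66) and Mrpl42 of 0.180 (11.92 to 12.87).

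The correlations between the 73 members other than Mrps28 were mostly positive. Of their 2628 pairs, 2598 (98.9%) had a positive correlation over the 115 mice, and the median Pearson correlation was 0.474 (Spearman 0.442). These values are a description: all pairs share the same arrays and the same mixture of tissues. The strongest pair was Mrpl15 and Mrpl51, both of the large subunit, at 0.856. The lowest was Mrpl1 and Mrps17, at -0.307. Mrpl22, Mrpl45 and Mrpl52 of the large subunit followed the mean of the others least (0.180, 0.210 and 0.217), and Mrps36 and Mrpl12 most (0.904 and 0.905).

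Of the 74 genes, 1 showed 2 separated levels between mice. In a backcross a locus has 2 genotypes, and a gene was counted as 2-level where a mixture of 2 normal distributions gained at least 10 in the Bayesian information criterion (BIC) over 1, the levels lay at least 3 SDs apart and the smaller level held at least 10% of mice. By that rule 2.34% of all measured genes (2.40% of probe sets) had 2 levels. The 1 mitoribosomal gene was Mrps28, on chromosome 3, whose human counterpart is needed for a stable small subunit.

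Mrps28 was at the lower level in 59 mice, where it ran from 7.04 through a median of 7.66 to 8.10. It was at the higher level in 56 mice, where it ran from 8.62 through 9.17 to 9.76. No mouse lay between 8.10 and 8.62, and the level means differed by 1.53, or 6.38 SDs, with a BIC gain of 108.6. The lower level held 51.3% of mice (95% Clopper-Pearson interval 41.8 to 60.7%).

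Both levels of Mrps28 were present in every group of mice. Lymph cluster 1 held 22 mice at each level, lymph cluster 2 held 32 lower and 29 higher, and lymph cluster 3 held 5 of each. Plate 1 held 49 lower and 44 higher, and plate 2 held 10 and 12. No genotype was used here, and on these arrays a difference in transcript amount and a difference in how well the probes bind 2 alleles cannot be told apart. Because its values form 2 clusters, Mrps28 was left out of the correlations between members, and its slopes given with the other members are fits across both levels.

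**Figure D1:**
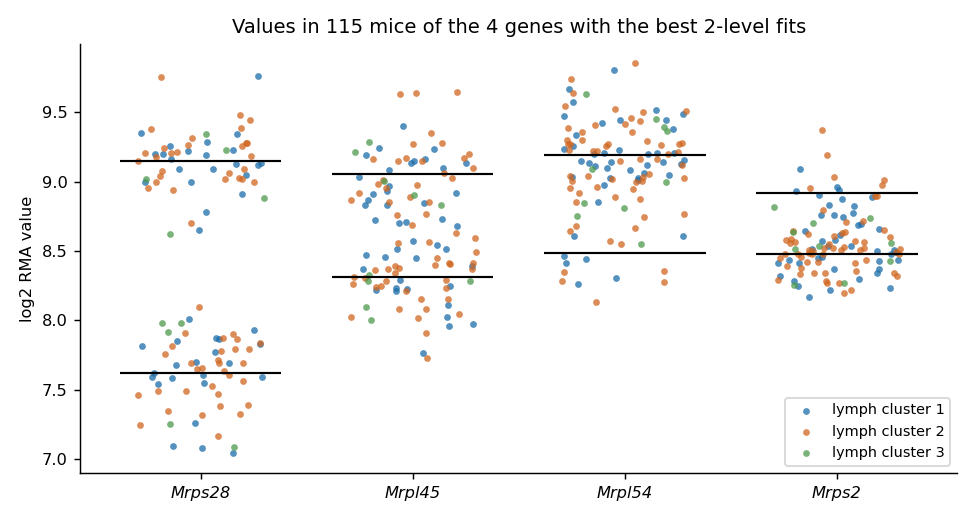
Log2 values of the 4 mitoribosomal genes with the largest BIC gain for 2 levels (x axis), 1 point per mouse (115 mice), coloured by lymph cluster; horizontal lines mark the 2 fitted levels, fitted after correction for cluster and plate. Mrps28 has an empty gap between 8.10 and 8.62, while Mrpl45, Mrpl54 and Mrps2 fill the space between their fitted levels.

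The next genes by BIC gain fell short of the rule. Mrpl45 had levels of 8.31 and 9.06 (62 and 53 mice), 3.13 SDs apart, but a BIC gain of 6.14. Mrpl54 gained 5.77, with 20 mice at the lower level, and Mrps2 gained 4.49, with 19 at the higher. The second probe set of Mrpl47 gained 11.4, but its smaller level held 5 mice.

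The side on which a mouse fell for Mrps28 was compared with the other 438 genes that have 2 levels. Matches were counted in the same or the opposite orientation, whichever gave more mice. No gene can therefore match in fewer mice than an even split. The gene 1700034I23Rik placed 95 of 115 mice on the matching side and Mgst2, a microsomal glutathione transferase, 91. Both lie on chromosome 3, 115 and 134 measured genes from Mrps28. The next on that chromosome, Lamtor5, a subunit of the lysosomal Ragulator complex, matched in 73 mice at 623 genes. Lamtor5 was level with the best of the 405 genes on other chromosomes, which also matched in 73. Over all 33 2-level genes of chromosome 3 the median match was 64 mice, and over genes on other chromosomes 63. The 2 nearest 2-level genes thus matched Mrps28 in more mice than any 2-level gene elsewhere.

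**Figure D2:**
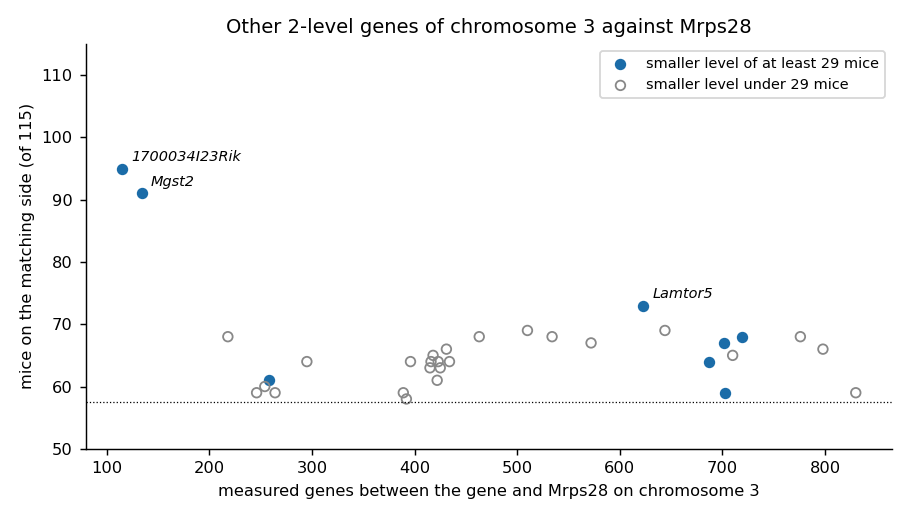
Number of the 115 mice that each 2-level gene of chromosome 3 places on the side matching Mrps28 (y axis), against the number of measured genes between that gene and Mrps28 (x axis); filled points have at least 29 mice at their smaller level, and the dotted line marks an even split. The 2 nearest genes match in 95 and 91 mice, and the others in 73 or fewer. Matches are counted in the better of the 2 orientations, so no gene can lie below the line.

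The first covariate followed was Hipk2, a nuclear kinase in the title of the study, whose value ran from 9.83 to 11.49 (mean 10.72 ± 0.348, SD, n = 115). A slope is how much a log2 value changed for each log2 unit of Hipk2, in a model that also held lymph cluster and plate, and a gene rose or fell where limma's Benjamini-Hochberg adjusted p was under 0.05. Of the 74 mitoribosomal genes, 33 rose with Hipk2, none fell and 41 did not pass. After a repeated quantile normalization of the arrays 20 rose, a fit for which the share of all probe sets is not given here. At an unadjusted p under 0.05, 40 rose and none fell. Over all probe sets 35.8% passed, 18.5% rising and 17.2% falling. The median slope was 0.162 for the members and -0.0078 for all genes. The large subunit had 25 of 46 genes rising and the small subunit 8 of 28, and the difference between the subunits was not tested.

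The steepest rise with Hipk2 was that of Mrpl54, a protein found in the mitoribosome and not in bacterial ribosomes. Its values ran from 8.13 through a median of 9.14 to 9.85, and its slope was 0.50 ± 0.08 (SE, n = 115, limma adjusted p = 4.97e-07). Mrpl27, whose bacterial relative reaches into the site where peptide bonds form, ran from 7.89 through 8.77 to 9.38 and had a slope of 0.46 ± 0.07 (limma adjusted p = 6.56e-09). Mrpl40 ran from 9.04 through 9.63 to 10.13 and had a slope of 0.41 ± 0.04 (limma adjusted p = 8.87e-14).

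Among the other steep rises, Mrpl55 had a slope of 0.45, Mrpl49 of 0.43 and Mrpl20, related to a bacterial protein that binds rRNA early in assembly, of 0.42. In the small subunit, Mrps11 had a slope of 0.41 and Mrps21 of 0.37. All 5 passed the test. The lowest slopes were those of Mrpl45 (-0.18), Mrpl47 (-0.17) and Mrpl22 (-0.16), which did not pass.

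These slopes moved with the white adipocyte markers. Hipk2 and the white adipocyte list mean were correlated over the mice (Pearson r = 0.857, Spearman rho = 0.848, permutation p = 1e-05 for both, the smallest that 100000 two-sided permutations can give, adjusted p = 4.67e-05 and 4e-05 over 28 pairs of covariates). The correlation was 0.842 without the 2 mice farthest from the median of Hipk2, 0.864 on plate 1 and 0.845 on plate 2. With the white adipocyte list mean added to the model, no mitoribosomal gene rose with Hipk2 in limma (2 at an unadjusted p under 0.05) and 17 fell (36 unadjusted), while 6.98% of all probe sets passed, 3.34% falling. Of the 74 slopes, 61 were then below 0, with a median of -0.242.

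The steepest fall in that model was Mrpl18, a large subunit protein reported to bind 5S rRNA and aid its import in human cells. Its slope was -0.90 ± 0.16 (SE, n = 115, limma adjusted p = 7.23e-05). Without the adipocyte term its slope was -0.08 and did not pass. Mrpl27 went from 0.46 to -0.25 and Mrpl20 from 0.42 to -0.34, and neither passed with the adipocyte term. Mrps11 was 0.30 and Mrps21 0.20 with it, also without passing. In all, 31 genes passed only without the adipocyte term, 15 only with it, 2 in both with opposite signs, and 26 in neither.

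**Figure D3:**
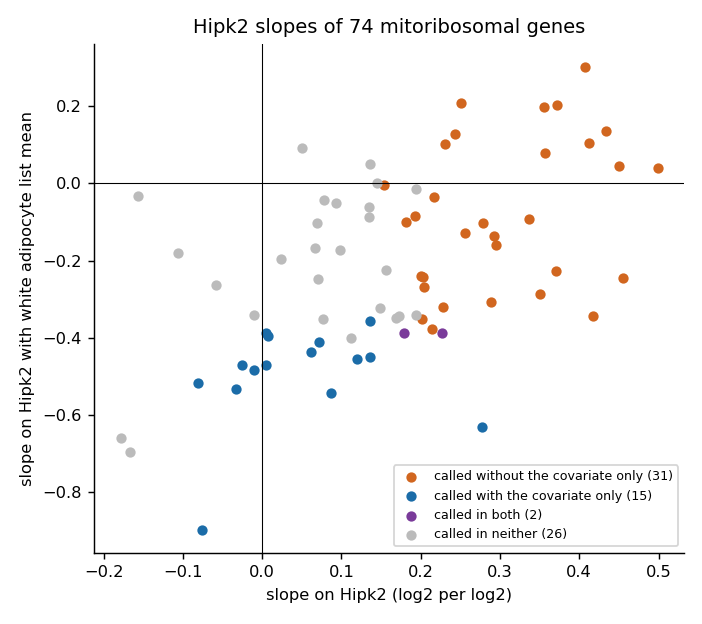
Slope on Hipk2 of each of the 74 mitoribosomal genes without (x axis) and with (y axis) the white adipocyte list mean in the model, both as log2 change per log2 unit of Hipk2; colours show in which model a gene passed at an adjusted p under 0.05. Genes that passed only without the adipocyte term (orange) lie on both sides of 0 on the y axis, mostly below. Of all 74 points, 61 lie below 0 there.

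Hipk2 slopes were also fitted by cluster. In lymph cluster 1 alone 5 genes rose (Mrpl55, Mrpl40, Mrpl49, Mrps11 and Mrpl17) and 1 fell (Mrpl19, -0.26), where 12% of all probe sets rose and 5.39% fell. In lymph cluster 2 alone 43 rose, where 15.5% of all probe sets rose and 15.9% fell. The slope difference itself, cluster 2 minus cluster 1, passed for 4 members, Mrps21, Mrpl16, Mrpl3 and Mrpl51, each steeper in cluster 2. This share of 74 is near the 4.62% of all probe sets that passed, so it is not a result about the members as a group. The median slope of the members was -0.027 in cluster 1 and 0.261 in cluster 2, and 68 of 74 differences were above 0. The same values over all genes are not given here, so these describe the members without a background.

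No mitoribosomal gene passed between the lymph clusters. This held in all 3 contrasts in limma, and none of the 74 had an unadjusted p under 0.05. Over all probe sets 0% passed, and an unadjusted p under 0.05 was reached by 0.0142% for cluster 2 against 1 and by 0.00355% in each contrast with cluster 3. Small p-values were thus nearly absent for all genes, and the 0 says nothing particular about the members. Mrps28, for instance, had a mean of 8.38 ± 0.811 in the 44 mice of cluster 1, of 8.36 ± 0.810 in the 61 of cluster 2 and of 8.33 ± 0.803 in the 10 of cluster 3 (± SD). The smallest p for cluster 2 against 1 was that of Mrpl50, a difference of -0.034 with a limma adjusted p of 1.000, followed by Mrpl27 at -0.034. For cluster 3 against 1 they were Mrps25 (-0.051) and Mrps22 (-0.084), and the same 2 genes for cluster 3 against 2 (-0.041 and -0.057).

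Between array plates no member passed either, against 0.0106% of probe sets (0.00355% higher and 0.00709% lower on plate 2), and 1 had an unadjusted p under 0.05. That gene, Mrpl36, was 9.19 ± 0.223 (SD, n = 93) on plate 1 and 9.08 ± 0.336 (SD, n = 22) on plate 2, a fitted difference of -0.12. Mrps16, next by p, had a fitted difference of -0.10. Both differences were smaller than the spread between mice.

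The respiratory chain itself was followed next. Along the mean of 42 oxidative phosphorylation genes, 72 of 74 mitoribosomal genes rose and none fell, against 38.5% of probe sets passing, 17% rising and 21.5% falling. The median slope was 0.58, against -0.017 for all genes. Members of both subunits took part, with 45 of 46 Mrpl and 27 of 28 Mrps genes rising. The Mrps count includes Mrps36, now known as Kgd4. With the 6 tissue lists in the model, 53 rose and none fell, where 8.88% of probe sets rose and 8.74% fell.

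Mrps36 was steepest along the respiratory chain genes, at 1.26 ± 0.07 (SE, n = 115, limma adjusted p = 2.10e-33). In the mouse with the lowest oxidative phosphorylation list mean (9.34) it was 6.62, and in the mouse with the highest (10.99) it was 8.53. Mrpl12, the stalk protein that recruits translation factors, followed at 0.98 ± 0.05 (limma adjusted p = 1.84e-35), with 7.72 and 9.70 in the same 2 mice. Mrpl15 had a slope of 0.91 ± 0.04 (limma adjusted p = 4.64e-40). The 2 genes that did not pass were Mrps28 (0.47 ± 0.24), whose values are split between its levels, and Mrpl22 (0.18 ± 0.09).

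**Figure D4:**
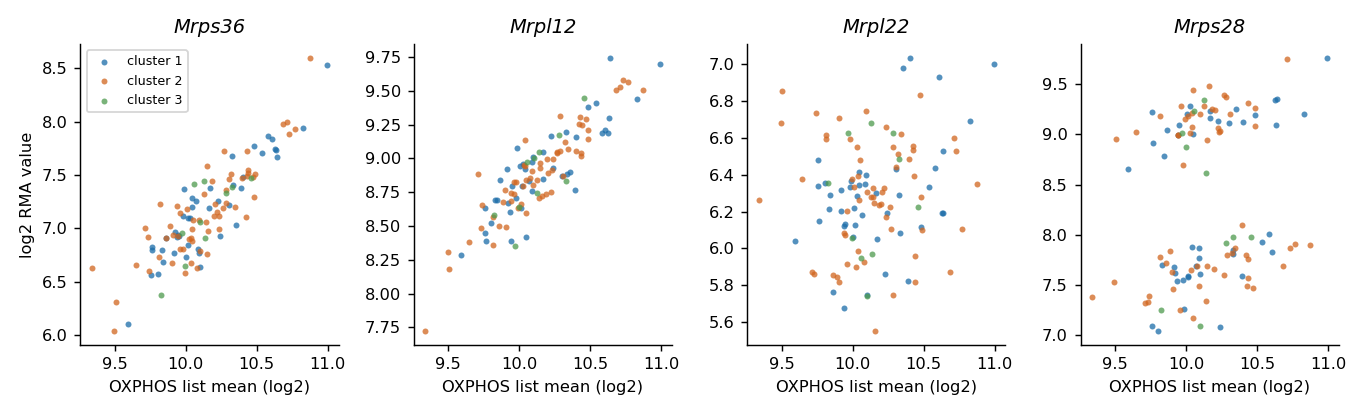
Log2 values (y axis, each panel with its own range) of Mrps36, Mrpl12, Mrpl22 and Mrps28 against the mean of 42 oxidative phosphorylation genes (OXPHOS list mean, x axis) in 115 mice, coloured by lymph cluster. Mrps36 and Mrpl12 climb with the list mean, Mrpl22 scatters, and Mrps28 forms 2 bands.

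Brown adipocyte markers gave nearly the same picture. Along the brown adipocyte list mean 68 of 74 genes rose and none fell, against 26.1% of probe sets passing, 12.6% rising and 13.5% falling, and all 74 slopes were above 0. The steepest were Mrps36 (0.43 ± 0.04), Mrpl34 (0.33 ± 0.03) and Mrpl12 (0.31 ± 0.03). The 6 that did not pass were Mrpl1, Mrpl22, Mrpl45, Mrps12, Mrps27 and Mrps28, with slopes from 0.04 (Mrps28) to 0.13 (Mrps27). The brown adipocyte list mean was correlated with the oxidative phosphorylation list mean (Pearson r = 0.852, Spearman rho = 0.832, permutation p = 1e-05 for both, adjusted p = 4.67e-05 and 4e-05, r = 0.836 without the 2 mice farthest from the median of the brown list, 0.850 on plate 1 and 0.878 on plate 2), and all 42 of its genes rose along the brown list. Cox7a1 and Cox8b of the brown list are respiratory chain subunits, and without them 68 members still rose. Along Ucp1 alone 63 rose. The shares of all probe sets that rose in these 2 further fits are not given here, so both counts stand without a background.

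White adipocyte markers came next. Along their list mean 54 of 74 genes rose and none fell, against 41% of probe sets passing, 20.6% rising and 20.4% falling. Mrpl27 (0.73 ± 0.07), Mrpl20 (0.72 ± 0.08) and Mrpl54 (0.69 ± 0.10) were steepest, the same 3 genes that stood among the 5 steepest along Hipk2. With all 6 tissue lists fitted together 23 members rose along the white adipocyte list, where 15.3% of probe sets rose. In the same fit 69 rose along the brown adipocyte list, where 10.3% of probe sets rose.

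Mitoribosomal genes fell where markers of other cell types were high. Along the luminal epithelium list mean (keratins and claudins of the milk ducts) 46 fell and none rose, against 26.4% passing, 12.1% rising and 14.3% falling, with Mrps36 (-0.20), Mrpl20 (-0.20) and Mrpl27 (-0.15) steepest. Without the 2 mice farthest from the median of that list 23 fell and 1, Mrps12, rose. For that fit the share of all probe sets is not given here. Along the lymphocyte list mean (B and T cell genes) 48 fell and none rose, against 32.9% passing, 16.2% rising and 16.6% falling, led by Mrps28 (-0.32), Mrps36 (-0.25) and Mrps22 (-0.23). Mrps28 did not pass there on plate 1 alone (-0.24) or without the 2 mice farthest from the median (-0.28).

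Along the cell cycle list mean 28 fell and none rose, against 27.1% passing, 14.9% rising and 12.2% falling, led by Mrpl55 (-0.21), Mrps21 (-0.21) and Mrps36 (-0.20). With the 6 tissue lists fitted together none fell, where 4.79% of probe sets fell. In that fit 8 of 74 rose, a share near the 8.97% of probe sets that rose, and the slope of Mrps36 was 0.15 and did not pass. The same fit gave 16 falls along the epithelium list, where 5.10% of probe sets fell, and 20 along the lymphocyte list, where 7.13% fell.

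Skeletal muscle, itself rich in mitochondria, gave few calls. Along its list mean 6 genes rose and none fell, against 9.74% passing, 4.76% rising and 4.98% falling. The members' share passing in either direction was near that of all probe sets, though all 6 calls were rises. Mrps28 (0.14), Mrpl51 (0.05) and Mrpl34 (0.05) were steepest, with Mrpl15, Mrpl42 and Mrps21 the others. On plate 1 alone, and with the tissue lists fitted together, none passed.

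**Figure D5:**
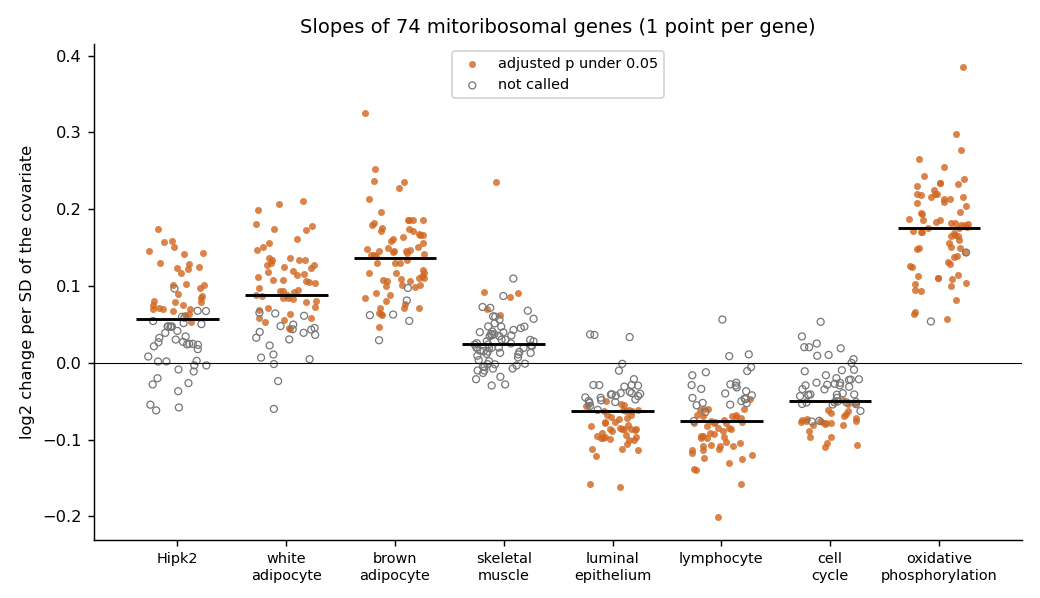
Slope of each of the 74 mitoribosomal genes along Hipk2 and 7 list means (x axis), scaled to the log2 change per SD of the covariate over 115 mice (y axis); filled orange points passed at an adjusted p under 0.05, and the bar is the median. Medians are highest for oxidative phosphorylation (0.176) and brown adipocytes (0.136), then white adipocytes (0.088) and Hipk2 (0.056), and below 0 for epithelium (-0.063), lymphocytes (-0.075) and cell cycle (-0.050).

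Other genes of mitochondrial translation were followed by lists. Of 3 mitoribosomal proteins with other names, Dap3, a small subunit GTPase, rose with Hipk2 (0.19), and Chchd1 (-0.04) and Ptcd3 (-0.02) did not pass. All 3 rose along the oxidative phosphorylation list mean. Of 11 mitochondrial translation factors, 3 rose with Hipk2, the recycling factor Mrrf (0.26), the elongation factor Tsfm (0.27) and the release factor Mtrf1 (0.22). Mtrf1l, a relative of Mtrf1, fell (-0.23). These counts are near the shares of all probe sets with Hipk2, 18.5% rising and 17.2% falling. Along oxidative phosphorylation 8 of the 11 rose and along the brown list 9.

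Of 16 mitochondrial aminoacyl-tRNA synthetases, which load tRNAs with amino acids, Iars2 rose with Hipk2 (0.45) and Nars2 fell (-0.19). Lars2 (0.12), next by p, did not pass. Both counts, 1 rise and 1 fall, are below the shares of all probe sets with Hipk2, 18.5% rising and 17.2% falling. Along the brown list 13 of the 16 rose, against 12.6% of all probe sets. Of 18 assembly and rRNA modification genes, 5 rose with Hipk2 and none fell, against the same 18.5% and 17.2% of all probe sets. The rises were led by Mpv17l2 (0.62), the rRNA chaperone Eral1 (0.32) and the GTPase Mtg1 (0.35). Along oxidative phosphorylation 17 of the 18 rose.

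Of 11 genes of mitochondrial DNA and its transcription, 3 rose and 3 fell with Hipk2. Over all probe sets 18.5% rose and 17.2% fell, shares that 11 genes would match to within about 1 gene. The falls were the single-strand DNA binding protein Ssbp1 (-0.38), the packaging and transcription factor Tfam (-0.36) and the polymerase subunit Polg2 (-0.18). Along oxidative phosphorylation 9 of the 11 rose and 1 fell. Slopes along the white adipocyte list mean itself gave 5 rises and 3 falls among the 11. There 20.6% of all probe sets rose and 20.4% fell, so the 3 falls are near that share.

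The transcriptional regulators moved in both directions along oxidative phosphorylation. With Hipk2 none of 9 rose and 4 fell: Pprc1 (-0.33), which belongs to the same coactivator family as Ppargc1a, Gabpb1 (-0.35), Myc (-0.68) and Nrf1 (-0.15). Among all probe sets 18.5% rose and 17.2% fell with Hipk2. Along oxidative phosphorylation the coactivators Ppargc1a (1.84 ± 0.13, SE, n = 115) and Ppargc1b (0.94 ± 0.08) and their partner, the nuclear receptor Esrra (0.74 ± 0.05), rose, while Gabpb1 (-0.37), Myc (-0.78), Nrf1 (-0.30), Pprc1 (-0.31) and Yy1 (-0.16) fell. The same 3 rose and the same 5 fell along the brown list, where 12.6% of all probe sets rose and 13.5% fell. Genes named here beyond the first 3 with Hipk2 were chosen after their values were seen.

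For 9 of the 12 mitoribosomal genes with several probe sets, the second probe set also rose along both the oxidative phosphorylation and the brown list. For Mrps10 it did not (slope of -0.20 along oxidative phosphorylation, against 0.61 for the one used), nor for Mrpl47 (-0.11, against 0.77) or Mrps30 (0.01, against 0.54). The second probe set of Mrps10 rose along the cell cycle list (0.33).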

How the data were processed

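The members and gene lists were chosen with earlier results of these data known. The deposited values are log2 intensities made by the authors with RMA and oligo, per the submitters' processing notes; the sources used here state no tool versions or array build. The table held 28204 probe sets on 115 arrays; 21141 had 1 gene symbol in the platform annotation. Symbols were updated through RefSeq (GRCm38.p6), which gave 18772 genes, 1 probe set (highest mean) per gene.

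Slopes and group differences were fitted with limma 3.58.1 in R 4.3.3 on all probe sets, with lymph cluster and plate as factors, empirical Bayes moderation and Benjamini-Hochberg adjustment. The genes of a list were left out of the fit along that list. Levels were sought with mclust 6.1.1 after cluster and plate effects were removed. For arrays, their number limits the precision. Replicates were separate mice, numbered in accession order and not paired. On simulated data, Hipk2 slopes of 0.5 were recovered for 94% of genes and of 0.25 for 49% (28203 probe sets), and levels 3 SDs apart in 45% of trials, levels 4 SDs apart in 100%. Figures were drawn with matplotlib 3.10.9.

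Named were 2-level genes and their 3 best-matching genes, the 8 steepest rises and falls with Hipk2 and the 3 steepest per list among calls, the 2 smallest p per cluster or plate contrast, the 3 most and least variable members, and 3 genes per pathway list. Alternatives changed arrays, scaling, covariates, moderation, probe sets and the 2-level thresholds. Motif letters were chosen with their shares known.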

Additional observations from a re-analysis of the deposited data

Results flagged for a closer look

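The slope on Hipk2 differed between lymph clusters for 4 mitoribosomal genes, by limma's interaction term over 105 mice. That share of 74 is near the 4.62% of all probe sets that passed the same test. Mrps21, of the small subunit, had a slope of 0.02 ± 0.10 (SE) in cluster 1 and 0.56 ± 0.07 in cluster 2, a fitted difference of 0.547 (limma adjusted p = 0.00222). Mrpl16, of the large subunit, had -0.07 ± 0.13 and 0.47 ± 0.08, a difference of 0.537 (limma adjusted p = 0.0226). Mrpl3 had -0.16 ± 0.10 and 0.23 ± 0.06, a difference of 0.387 (limma adjusted p = 0.0297), and Mrpl51 had -0.14 ± 0.12 and 0.34 ± 0.08, a difference of 0.485 (limma adjusted p = 0.0353).

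In lymph cluster 3, the smallest group with 10 mice, 3 of 74 genes had 1 mouse far from the others by Dixon's test, where chance marks about 1 in 20 groups. Mrps16 had its highest mouse at 8.091, with the next at 7.735 and the lowest at 7.384. Mrps12 had its highest mouse at 6.697, with the next at 6.116 and the lowest at 5.834. Mrpl4 had its lowest mouse at 8.139, with the next at 8.516 and the highest at 8.946.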

How the results depend on the processing

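Rises with Hipk2 (33) numbered 20 after a repeated quantile normalization and 0 with the white adipocyte list mean, where 17 fell, and in cluster 1 alone 5 rose and 1 fell. The other alternatives tried for Hipk2 kept the count within 1.5 times. With the 6 tissue lists fitted together, rises along the white adipocyte list went from 54 to 23 and along muscle from 6 to 0, falls along the epithelium list from 46 to 16, along the lymphocyte list from 48 to 20 and along the cell cycle list from 28 to 0, where 8 rose. Rises along muscle were 0 on plate 1 alone. Without the 2 mice farthest from the median of the epithelium list 23 fell and 1 rose. With every probe set counted 1 rose along the cell cycle list. Rises along the brown adipocyte and oxidative phosphorylation lists, and the 1 gene with 2 levels, kept their count within 1.5 times in every alternative run. Of 223 values of named genes under alternatives, 195 kept direction and call, 25 lost the call, and 3 reversed: Mrpl27 (-0.25) and Mrpl20 (-0.34) with the white adipocyte list mean, and Mrps36 along the cell cycle list (0.15) in the joint fit. The cause was not tested. Centring each array on its median moved its values by up to 0.158 and kept all counts within 1.5 times. No paired analysis was possible because each mouse lies in 1 cluster and 1 plate and numbers shared between groups come from accession order alone. The fit alongside brown adipocyte markers, the shortened brown list and Ucp1 alone were added after seeing the data.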
